A study of Homo sapiens with 5 samples.

Results

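The histone deacetylases HDAC1, HDAC2, HDAC3, HDAC6 and HDAC9, the sirtuin SIRT1, the DNA methyltransferases DNMT1, DNMT3A and DNMT3B, and the histone methyltransferase EZH2 were followed across the arrays. These are 10 of 19775 genes, chosen by name because DIM and genistein are described as acting on these enzymes. All 19 probe sets that the platform's gene table assigns to these genes alone were taken, of 54613 on the array. RNA of C4-2B cells, an androgen-independent line derived from LNCaP prostate cancer cells, had been hybridised to 5 Affymetrix arrays, a single array per condition. The conditions were a vehicle control with 0.1% DMSO, 25 µM BR-DIM (B-DIM in the sample labels) for 6 h and for 48 h, and 25 µM isoflavone for 6 h and for 72 h. BR-DIM is a formulated 3,3′-diindolylmethane from the indoles of cruciferous vegetables, and isoflavone is the soy mixture G2535, whose stated concentration is that of its genistein. All cells were grown in RPMI medium with serum, and the sources used here do not give how long the control was cultured.

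Histone deacetylases remove acetyl groups from histone tails and other proteins, and on chromatin this usually accompanies lower transcription. HDAC1 and HDAC2 work in the SIN3, NuRD and CoREST complexes, HDAC3 works with the NCOR corepressors, HDAC6 is mostly cytoplasmic and deacetylates tubulin, and HDAC9 is a class IIa enzyme. SIRT1 is a deacetylase that depends on NAD. DNMT1 copies methylation to the new DNA strand after replication, DNMT3A and DNMT3B place it de novo, and EZH2 is the catalytic subunit of Polycomb repressive complex 2 (PRC2), which methylates histone H3. In prostate cancer EZH2 is known for its high level in advanced disease.

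The values are array signals, linear intensities that the authors had already scaled between arrays. Signals under 97.1, the median of all signals, were raised to that floor before a ratio was formed, a ratio in which a signal met the floor is a bound, and 2-fold or more was the size counted as a change. Where a gene has several probe sets, that of highest mean signal stands for it. With 1 array per condition there is no spread between replicates, so no difference was tested and all values describe these arrays. The 4 treated arrays were set against the same control array, whose own deviation enters each of those ratios.

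The control cells carried the markers of their label, but the arrays of BR-DIM at 48 h and isoflavone at 6 h stood apart in prostate and epithelial genes. On these 2 arrays the prostate markers FOLH1 (19.6 and 17.2) and TMPRSS2 (10.3 and 5.3) were under the floor. KLK3 was under it with BR-DIM at 48 h (14.6), each by the probe set that stands for it, while 4 of 7 markers were above it on all 5 arrays. Of 7 markers of C4-2B cells with a probe set of their own all were above the floor on the control, and 6 were at least 2-fold lower on each of these 2 arrays, with summed signals of 1798 and 1265 against 6237 to 9805 on the other 3. Of 9 epithelial genes 8 and 9 were at least 2-fold lower there, for example the E-cadherin gene CDH1 (2195 in the control, 99.5 and 86 there). Of all measured genes 3.87% were as much lower with BR-DIM at 48 h and 3.82% with isoflavone at 6 h. The PSA gene KLK3 and the keratin genes KRT8 and KRT18 are in both lists, so the counts overlap. In bulk RNA, fewer cells of a type and less RNA per cell cannot be told apart. Of 7 markers of leukocytes, stroma, endothelium and basal cells, 4 were above the floor on any array, and the summed signal was between 600.3 and 1244. Most of that sum was the collagen gene COL1A1, a stromal marker, which read 413.5 to 972 and was above the floor on all 5 arrays. A second COL1A1 probe set was above it on all 5 as well (108 to 363.5), and its others on fewer. The rest of the 4 passed the floor on 1 array each. Whether these marker differences have a part in the enzyme values below was not tested.

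Changes of 2-fold were nearly absent among these enzymes. HDAC9 with BR-DIM at 48 h was higher by at least 2-fold, and all other ratios of the 10 genes to the control stayed within 2-fold. With BR-DIM, 0 of 10 were higher and 0 lower at 6 h, where 2.86% and 0.806% of all measured genes were, and 1 was higher and 0 lower at 48 h, where 5.33% and 3.87% were. With isoflavone, 0 were higher and 0 lower at each time, against 1.18% and 3.82% of all genes at 6 h and 4.80% and 2.06% at 72 h. A count of 0 or 1 among 10 is near these shares. The median log2 ratio of the 10 genes was -0.02, 0.08, -0.06 and 0.06, beside 0.07, 0.06, 0.0035 and 0.05 for all genes. The median size of the ratio, with its sign left out, was 0.24, 0.28, 0.14 and 0.44 on the log2 scale for the 10 genes, against 0.27, 0.37, 0.27 and 0.33 for all genes.

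**Figure D1:**
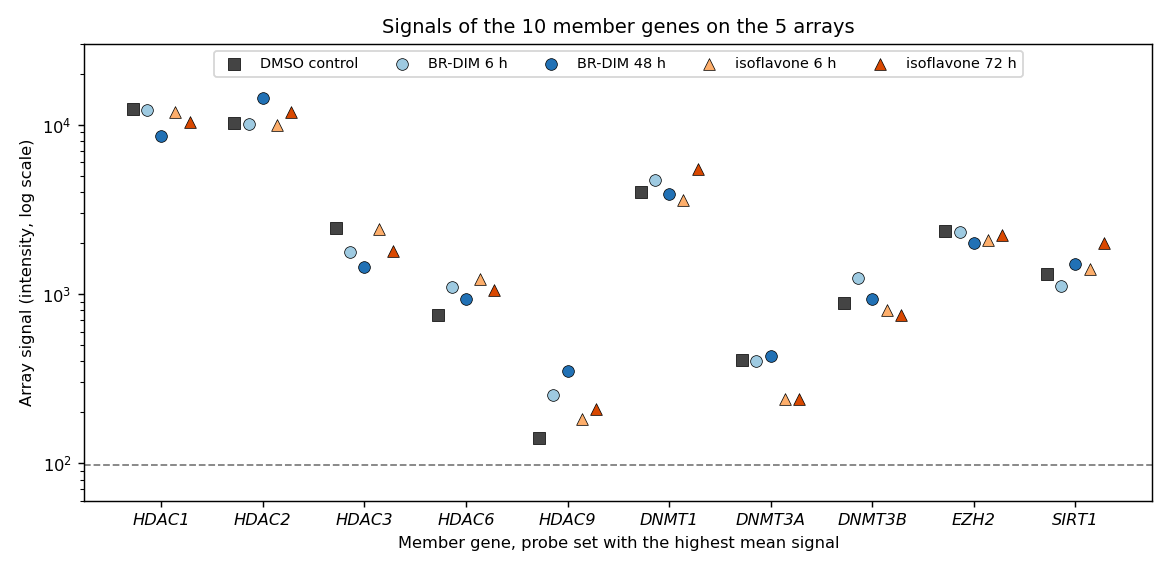
Array signal (intensity, log scale) of the 10 genes, each by the probe set that stands for it, with a point for each array and a dashed line at the floor of 97.1. HDAC9 lies closest to the floor, between 141 and 350, and EZH2 spans the narrowest range, from 2013 to 2370.

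HDAC1 and HDAC2, the paired catalytic subunits of the same complexes, lay on opposite sides of the control with BR-DIM at 48 h. The HDAC1 signal was 12409 in the control, 12226 with BR-DIM at 6 h, 8545 with BR-DIM at 48 h, 11835 with isoflavone at 6 h and 10388.5 with isoflavone at 72 h. It was lowest with BR-DIM at 48 h, followed by isoflavone at 72 h. The remaining arrays lay close to the control. The HDAC2 signal was 10270 in the control, 10064 with BR-DIM at 6 h, 14375 with BR-DIM at 48 h, 9918.5 with isoflavone at 6 h and 11882 with isoflavone at 72 h. Its highest signals were on those same arrays, at the late time of each compound. The log2 ratio to the control with BR-DIM at 48 h was -0.54 for HDAC1 and 0.49 for HDAC2. The difference of these ratios, which still rests on the control array, was -1.02. With isoflavone at 72 h it was -0.26 and 0.21, a difference of -0.47. At 6 h the differences were 0.01 with BR-DIM and -0.02 with isoflavone. Without the control, BR-DIM at 48 h over BR-DIM at 6 h gave -0.52 for HDAC1 and 0.51 for HDAC2. Of genes with a mean signal of at least 4 times the floor, 13.7% were as low as HDAC1 and 19.1% as high as HDAC2 with BR-DIM at 48 h, so neither ratio is rare on that array. A second HDAC2 probe set, much dimmer, read 124.5, 132, 112, 277 and 214.5 in the order control, BR-DIM at 6 h, BR-DIM at 48 h, isoflavone at 6 h, isoflavone at 72 h. Its ratio was -0.16 with BR-DIM at 48 h and 1.16 with isoflavone at 6 h, against 0.49 and -0.05 by the brighter probe set, so the HDAC2 probe sets do not move together. That 1.16 is past 2-fold higher, as were 1.18% of all measured probe sets with isoflavone at 6 h.

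The promoters of this pair are shown because their ratios had opposite signs at the late times. The sequences are the 250 bases before a RefSeq transcription start on GRCh38.p14, in lower case, with capitals for 4 motifs searched on each strand: CCAAT, which NF-Y binds, GGGCGG, which SP1 binds, GCGTG, the core that the aryl hydrocarbon receptor binds, and the E2F core, spelled TTCGCGC with TTGGCGC and also TTCCCGC and also TTGCCGC as variants. A match on the other strand stands as its reverse complement, so CCAAT may read ATTGG, and neighbouring matches can overlap.
HDAC1, chr1:32291833-32292082, plus strand: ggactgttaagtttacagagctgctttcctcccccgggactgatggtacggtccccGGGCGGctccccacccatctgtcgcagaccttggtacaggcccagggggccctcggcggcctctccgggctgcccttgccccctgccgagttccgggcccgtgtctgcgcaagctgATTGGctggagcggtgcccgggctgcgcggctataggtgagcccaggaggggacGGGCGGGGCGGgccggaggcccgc
HDAC2, chr6:113971149-113971398, minus strand: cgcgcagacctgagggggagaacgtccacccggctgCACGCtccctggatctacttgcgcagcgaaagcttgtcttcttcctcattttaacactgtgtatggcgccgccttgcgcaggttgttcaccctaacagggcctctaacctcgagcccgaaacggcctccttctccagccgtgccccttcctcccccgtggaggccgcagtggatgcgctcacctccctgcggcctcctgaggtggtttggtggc
The HDAC1 window holds 3 GGGCGG matches and 1 CCAAT match, and the HDAC2 window holds 1 GCGTG match and none of the others. CpG dinucleotides number 21 and 18, against a median of 11 over 34788 RefSeq promoter windows of the same length.

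HDAC3 was below the control by less than 2-fold on every treated array, and by 1.5-fold or more only with BR-DIM at 48 h. Its signal was 2439 in the control, 1764 with BR-DIM at 6 h, 1450.4 with BR-DIM at 48 h, 2413.5 with isoflavone at 6 h and 1801 with isoflavone at 72 h. The log2 ratios were -0.47 and -0.75 for the BR-DIM times, and -0.02 and -0.44 for those of isoflavone. With BR-DIM at 48 h 7.34% of genes of like signal were as low, and with BR-DIM at 6 h 7.61%. At matched dose and time, BR-DIM at 6 h over isoflavone at 6 h, HDAC3 differed by -0.45.

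HDAC6, the tubulin deacetylase, was above the control on each treated array. The signals were 749 in the control, 1099 with BR-DIM at 6 h, 939 with BR-DIM at 48 h, 1229 with isoflavone at 6 h and 1056 with isoflavone at 72 h. Its log2 ratios to the control were 0.55, 0.33, 0.71 and 0.49. Between treated arrays HDAC6 differed by -0.23 for BR-DIM at 48 h over 6 h, -0.22 for isoflavone at 72 h over 6 h and -0.16 for BR-DIM at 6 h over isoflavone at 6 h. All 4 ratios share the control signal, which is the lowest of the 5. With isoflavone at 6 h 3.19% of genes of like signal were as high. Another HDAC6 probe set near the floor had 0.09, 0.24 and 0.59 on the first 3 treated arrays and fell under the floor with isoflavone at 72 h (45, against 109.5 in the control), and the remaining one was under the floor on all 5 arrays.

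HDAC9, a class IIa deacetylase that represses MEF2 targets, carried the only 2-fold change. Its signal was 141 in the control, 252 with BR-DIM at 6 h, 350 with BR-DIM at 48 h, 182 with isoflavone at 6 h and 210 with isoflavone at 72 h. All 4 treated arrays were higher than the control, those with BR-DIM most of all. The log2 ratios were 0.84, 1.31, 0.37 and 0.58. These are dim signals, under 4 times the floor, and at 48 h of BR-DIM 6.98% of genes as dim were higher by 2-fold or more. With the floor added as a pseudocount the ratio with BR-DIM at 48 h was 0.91, under 2-fold. Of the other 4 HDAC9 probe sets, 3 lay under the floor on all 5 arrays, and the remaining one read 124, 119, 53, 156 and 44.5, with a bound of -0.35 with BR-DIM at 48 h. The HDAC9 probe sets thus pointed opposite ways on that array, and the transcripts that each reads were not analysed here. Genes whose ratios over the 4 treated arrays lay closest to those of HDAC9, among 7304 genes at least 4 times the floor on every array, were CHASERR, DRAM2 and ZFAND1, with root mean square differences of 0.09, 0.10 and 0.11 on the log2 scale.

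RefSeq gives HDAC9 several starts that lie far apart, and 2 of its 5 windows are shown because the promoters differ in base composition.
HDAC9, chr7:18086575-18086824, plus strand: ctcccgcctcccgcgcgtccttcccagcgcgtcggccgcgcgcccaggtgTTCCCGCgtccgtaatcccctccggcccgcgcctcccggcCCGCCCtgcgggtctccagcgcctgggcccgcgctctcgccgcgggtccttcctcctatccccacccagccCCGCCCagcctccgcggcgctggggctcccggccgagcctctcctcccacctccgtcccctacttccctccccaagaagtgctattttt
HDAC9, chr7:18495499-18495748, plus strand: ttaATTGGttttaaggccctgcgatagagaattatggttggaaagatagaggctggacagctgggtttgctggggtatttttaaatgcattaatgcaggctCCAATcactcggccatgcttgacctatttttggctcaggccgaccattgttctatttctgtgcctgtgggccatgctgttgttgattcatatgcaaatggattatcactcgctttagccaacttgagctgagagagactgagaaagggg
The upstream window is rich in CpG, with 32, and holds 2 GGGCGG matches and 1 E2F core. The internal window holds 4 CpG and 2 CCAAT matches. The signals do not tell which start was used.

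**Figure D2:**
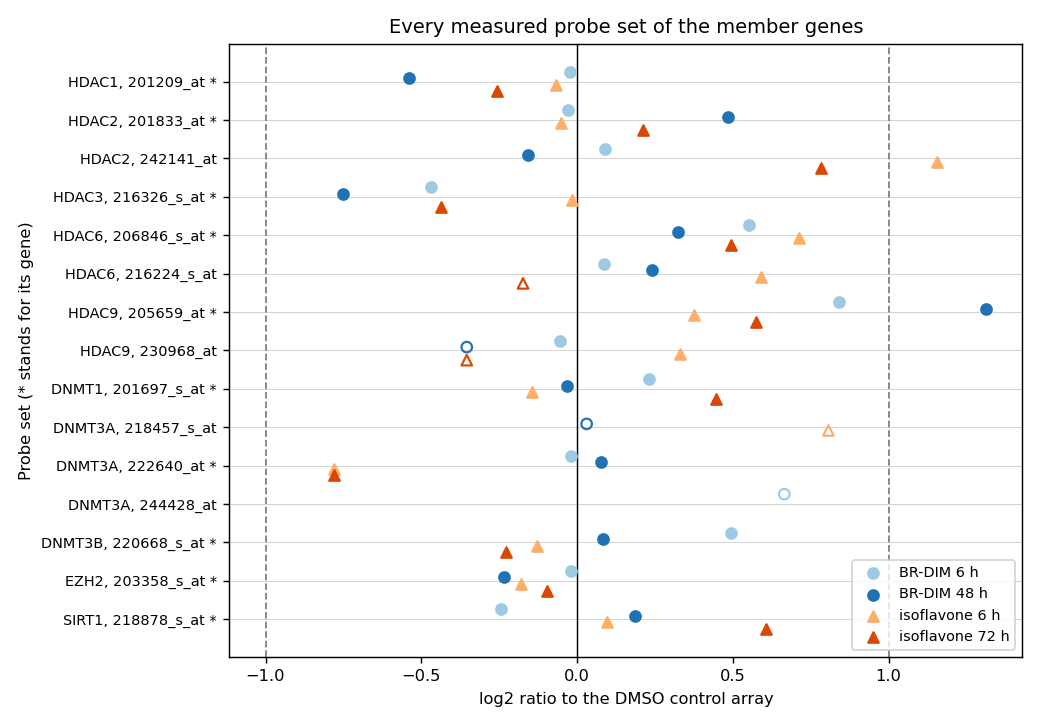
Log2 ratio to the DMSO control array (horizontal axis) of the probe sets above the floor on at least 1 array, with 1 point per treated array, open points for bounds at the floor, dashed lines at 2-fold, and an asterisk for the probe set that stands for its gene. Past 2-fold lie HDAC9 with BR-DIM at 48 h (1.31) and the dim HDAC2 probe set with isoflavone at 6 h (1.16).

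The DNA methyltransferases followed different patterns. DNMT1, the maintenance enzyme, had signals of 3997 in the control, 4693 with BR-DIM at 6 h, 3910 with BR-DIM at 48 h, 3612 with isoflavone at 6 h and 5445 with isoflavone at 72 h. It was highest with isoflavone at 72 h, with log2 ratios of 0.23, -0.03, -0.15 and 0.45, and isoflavone at 72 h over 6 h gave 0.59. DNMT3A had 410, 405 and 432 in the control and with BR-DIM at 6 h and 48 h, and 238 and 239 with isoflavone at 6 h and 72 h. The isoflavone arrays lay together below the other 3, with ratios of -0.78 at each time against -0.02 and 0.08 with BR-DIM. Of genes with a mean signal under 4 times the floor, like DNMT3A, 12.6% were as low with isoflavone at 6 h and 5.88% with isoflavone at 72 h. Its other probe sets were above the floor on 2 arrays and 1 array, and the former read 170 with isoflavone at 6 h against 86 in the control, which is the opposite direction. With all DNMT3A probe sets averaged the isoflavone ratios were -0.25 and -0.83. DNMT3B had 880 in the control, 1240 and 931 with BR-DIM at 6 h and 48 h, and 805 and 751 with isoflavone at 6 h and 72 h, with ratios of 0.50, 0.08, -0.13 and -0.23. BR-DIM at 6 h stood above the other arrays for DNMT3B.

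At 25 µM for 6 h, where dose and time match, BR-DIM exceeded isoflavone by 0.76 for DNMT3A, 0.62 for DNMT3B and 0.38 for DNMT1 on the log2 scale. Isoflavone at 6 h is also 1 of the 2 arrays low in prostate and epithelial genes. In this comparison 9 of 9 epithelial genes were at least 2-fold higher under BR-DIM (median 2.82), beside 7.01% of all genes. Whether this has a part in the DNMT values was not tested. DNMT3A and DNMT3B were the 2 of 10 genes past 1.5-fold in that comparison, both higher under BR-DIM, and 0 were lower, beside 17.5% and 6.55% of all genes. Another DNMT3A probe set gave a bound of -0.81 there, the opposite direction, and with all its probe sets averaged DNMT3A was at 0.45, under 1.5-fold. At 2-fold the count there was 0, where 7.01% of all genes were higher and 1.12% lower. Between the times of BR-DIM it was also 0, beside 1.83% higher and 3.74% lower, and between the times of isoflavone 0, beside 7.77% and 1.89%. The genes closest in pattern to DNMT3A were E2F3, GSR and NUAK1, with root mean square differences of 0.16, 0.16 and 0.17. E2F3, an E2F transcription factor, read 1698 in the control and 974 and 1111 with isoflavone, and its second probe set 1035, 801 and 1196.

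EZH2 was the steadiest of the 10 genes. Its signal was 2370 in the control, 2337 with BR-DIM at 6 h, 2013 with BR-DIM at 48 h, 2093 with isoflavone at 6 h and 2218 with isoflavone at 72 h. The log2 ratios were -0.02, -0.24, -0.18 and -0.10, a range of 0.24 over the 5 arrays, where the other 9 genes ranged over 0.54 to 1.31. EZH2 has 1 probe set here, of the _s_at kind (probes shared by several transcripts), as do HDAC3, DNMT1, DNMT3B and SIRT1. Its core partners in PRC2, each by the probe set that stands for it, stayed within 2-fold on every array. EED was between -0.10 and 0.34, SUZ12 between -0.12 and 0.01, and the histone chaperones RBBP4 and RBBP7 between -0.34 and 0.21. The RBBP4 probe sets differed, and the only furthest from the control gave -1.34, -1.73, -1.23 and -0.51 on the 4 treated arrays. Of the 10 other PRC2 genes 0 were higher by 2-fold on any array and 1 was lower, with isoflavone at 72 h, where 2.06% of all genes were. This was PHF19, a subunit that binds methylated histone H3. PHF19 read 1298 in the control and 475 with isoflavone at 72 h (-1.45), and a second probe set gave -1.65 while the remaining one gave 0.08. EZH1, the paralogue of EZH2, was between 0.33 and 0.56 by the probe set that stands for it, while another of similar signal lay between -0.27 and 0.16. The accessory subunit JARID2 was at 0.66 with BR-DIM at 6 h and 0.20 at 48 h, where its second probe set gave 0.48 and 1.02, the latter past 2-fold. PHF1, also an accessory subunit, was at 0.82 with BR-DIM at 48 h, and a dimmer probe set gave a bound of 0.61.

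EZH2 and DNMT1 are known to be transcribed in cycling cells, so proliferation genes were set beside them. With isoflavone at 72 h, 8 of 18 proliferation genes were at least 2-fold lower, where 2.06% of all genes were, and their median was -0.82. Among them were MKI67 (-1.36), the mitotic kinase PLK1 (-1.47), cyclin B1, CCNB1 (-1.21), and the helicase subunit MCM2 (-1.29). The other MKI67 probe sets gave -0.47 to -1.19 there, and the second CCNB1 probe set -0.05. The fall was not shared by the whole list. By the brightest probe set alone, with any others not examined, CDK1 (0.23), TYMS (0.20) and TOP2A (0.09) were above the control with isoflavone at 72 h. The rest of the 18 were below it by the probe set that stands for each. On that array EZH2 was at -0.10 and DNMT1 at 0.45, while PCNA, the clamp that recruits DNMT1 to replicating DNA, was at -0.11 and UHRF1, which guides DNMT1 to hemimethylated sites, at -0.30. The proliferation median was -0.17 and -0.07 for the BR-DIM times and 0.01 for isoflavone at 6 h. On those arrays 0, 1 and 0 of the 18 were lower by 2-fold, beside 0.806%, 3.87% and 3.82% of all genes. The part of the proliferation change in any ratio here was not tested.

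**Figure D3:**
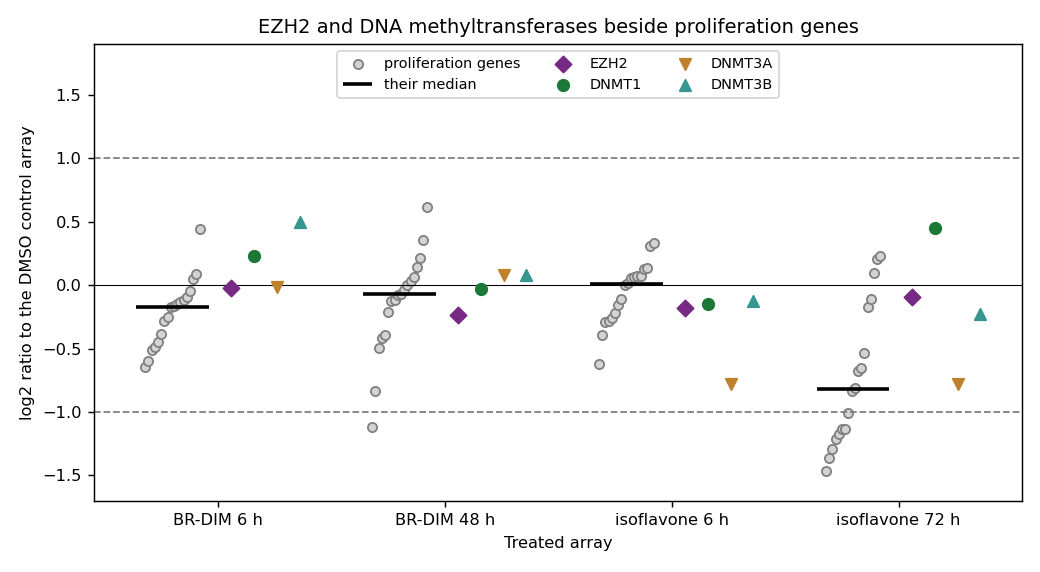
Log2 ratio to the DMSO control array of 18 proliferation genes (grey points, black bar for the median) and of EZH2, DNMT1, DNMT3A and DNMT3B on each treated array, with dashed lines at 2-fold. With isoflavone at 72 h the proliferation median is -0.82, with EZH2 at -0.10 and DNMT1 at 0.45.

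The promoter of DNMT1 and 1 of the 2 RefSeq windows of EZH2 are shown as those of enzymes tied to the cell cycle, with the same capitals as above.
EZH2, chr7:148884292-148884541, minus strand: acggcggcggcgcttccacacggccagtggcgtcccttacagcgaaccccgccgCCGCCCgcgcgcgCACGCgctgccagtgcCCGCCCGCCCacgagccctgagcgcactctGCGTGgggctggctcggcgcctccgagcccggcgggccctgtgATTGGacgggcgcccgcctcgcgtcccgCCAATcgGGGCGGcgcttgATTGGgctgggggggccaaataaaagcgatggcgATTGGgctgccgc
DNMT1, chr19:10194954-10195203, minus strand: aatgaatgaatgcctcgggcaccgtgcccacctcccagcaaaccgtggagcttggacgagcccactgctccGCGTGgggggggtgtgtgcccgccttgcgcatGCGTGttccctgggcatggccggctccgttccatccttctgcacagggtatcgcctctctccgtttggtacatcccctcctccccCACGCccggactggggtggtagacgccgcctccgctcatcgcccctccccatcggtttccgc
The EZH2 window shown holds 4 CCAAT, 4 GGGCGG and 2 GCGTG matches and 38 CpG. The other EZH2 window holds 0 CCAAT, 1 GGGCGG and 2 GCGTG matches and 39 CpG, and the DNMT1 window holds 3 GCGTG matches and 21 CpG. None of these 3 holds an E2F core in these letters. Over all 22 windows of the 10 genes, some of which overlap, CCAAT was found in 8, GGGCGG in 13, GCGTG in 8 and the E2F core in 2. Of 34788 windows of all genes, 32.0%, 42.6%, 32.2% and 10.9% held them.

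SIRT1 was highest with isoflavone at 72 h. Its signal was 1319 in the control, 1112 with BR-DIM at 6 h, 1500.3 with BR-DIM at 48 h, 1408 with isoflavone at 6 h and 2006 with isoflavone at 72 h. The log2 ratios were -0.25, 0.19, 0.09 and 0.61, and each compound was higher at its late time than at 6 h, by 0.43 for BR-DIM and 0.51 for isoflavone. With isoflavone at 72 h 11.8% of genes of like signal were as high. SELENOP, GORAB and NIPSNAP3A had the patterns closest to that of SIRT1, with root mean square differences of 0.07 each. Of the other 6 sirtuins SIRT5, a mitochondrial desuccinylase, was past 2-fold higher with BR-DIM at 48 h (1.19) and isoflavone at 72 h (1.03), with 342 in the control and 781 and 701 there. Another SIRT5 probe set gave -1.02, a bound, and -0.16 on those arrays. SIRT2 stayed between 0.02 and 0.32, and its dimmer probe set between -0.57 and 0.11. SIRT3 was at 0.54 with isoflavone at 6 h, where other SIRT3 probe sets gave 0.03 and -0.06, and the latter was at -1.03, a bound, with BR-DIM at 48 h. SIRT7 was lowest on that array (-0.65). The counts among these sirtuins were 1 of 6 higher with BR-DIM at 48 h and 1 of 6 with isoflavone at 72 h, beside 5.33% and 4.80% of all genes, and 0 on the other arrays.

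**Figure D4:**
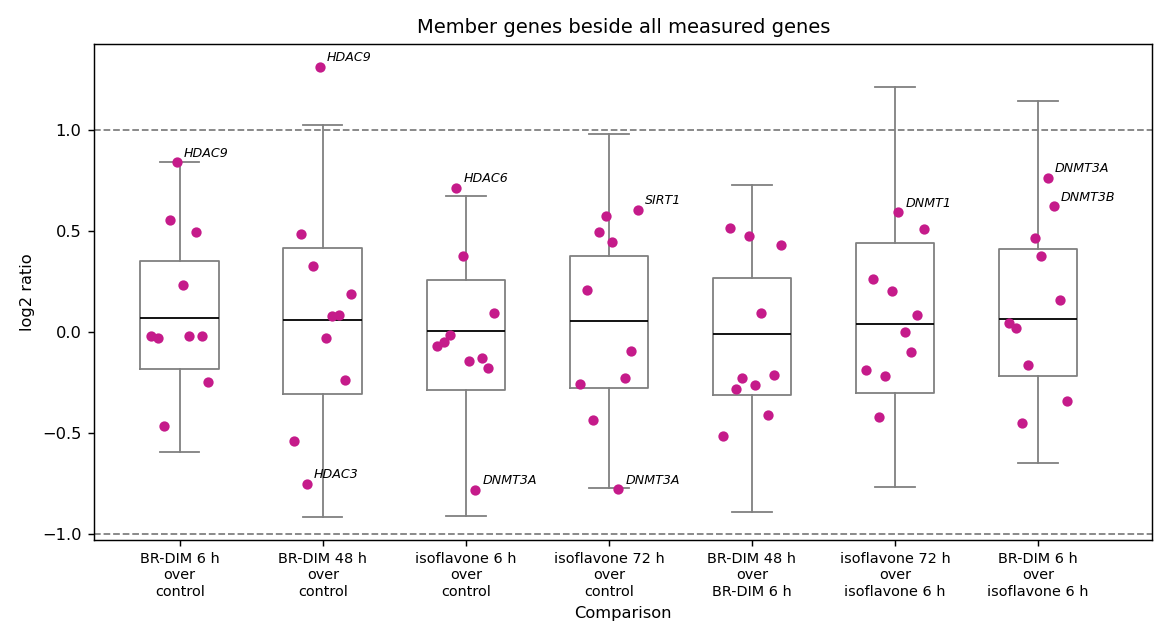
Log2 ratios of the 10 genes (points, named past 1.5-fold) in 7 comparisons, beside boxes for all measured genes (quartiles and median, whiskers from the 5th to the 95th percentile); dashed lines mark 2-fold. HDAC9 with BR-DIM at 48 h (1.31) is the only point outside 2-fold.

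By the looser rule of 1.5-fold, HDAC9 was higher with BR-DIM at 6 h and 48 h and HDAC3 lower with BR-DIM at 48 h. HDAC6 was higher with isoflavone at 6 h, SIRT1 was higher with isoflavone at 72 h, and DNMT3A was lower on both isoflavone arrays. The higher and lower counts were thus 1 and 0 at 6 h and 1 and 1 at 48 h with BR-DIM, beside 12.4% and 5.15%, and 16.8% and 12.6%, of all genes. They were 1 and 1 at each isoflavone time, beside 7.15% and 11.5% at 6 h and 15.0% and 9.73% at 72 h. Between times, 0 passed for BR-DIM (8.68% higher and 11.9% lower among all genes) and DNMT1 alone was higher for isoflavone (18.8% and 10.3%). These counts are near the shares of all genes.

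A few partner genes passed 2-fold. HDAC5, another class IIa deacetylase, went from 256 in the control up to 549 and 660.5 under BR-DIM (1.10 and 1.37) and read 475 and 295 with isoflavone (0.89 and 0.20). No other zinc-dependent deacetylase of the 6 listed was past 2-fold by the probe set that stands for it, and the second HDAC5 probe set lay near or under the floor. The count was 1 of 5 measured higher with BR-DIM at 6 h and 1 of 6 at 48 h, beside 2.86% and 5.33% of all genes. HDAC8 lay between -0.20 and 0.40, but its other probe sets reached -0.73 with isoflavone at 72 h and -0.89 with BR-DIM at 6 h. HDAC11, dim at 148 in the control, was at 0.95, 0.65, 0.96 and 0.73 on the 4 treated arrays. HDAC7 was at 0.98 with BR-DIM at 48 h, a bound, and HDAC4 lay between -0.65 and -0.07. Any other probe sets of HDAC4, HDAC7 and HDAC11 were not examined. Among 16 subunits of the deacetylase complexes with a probe set of their own, MTA2, a subunit of NuRD, read 252 in the control, then 123, 123, 25 and 148 across the treated arrays, at least 2-fold lower on 3 of them, with the signal of 25 under the floor. TBL1XR1, which tethers HDAC3 to the NCOR complex, was 2-fold lower with isoflavone at 6 h (5412 to 2601, -1.06), where its 4 other measured probe sets lay between -1.76 and -0.82. The counts lower in this list were 1, 1, 2 and 0 of 16, beside 0.806%, 3.87%, 3.82% and 2.06% of all genes, and 0 were higher on any array. SAP30 of the SIN3 complex was at 0.93 with isoflavone at 6 h, where its other measured probe sets gave 0.13 and 0.54. GATAD2B of NuRD was at 0.68 with isoflavone at 72 h, where its second probe set gave 0.11. TBL1X, the relative of TBL1XR1, was at 0.76 on that array, but other TBL1X probe sets gave -0.13 to 0.38 there, and one of them -1.23 with isoflavone at 6 h.

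Of 8 measured partners and readers of DNA methylation, UHRF2, a relative of UHRF1, was past 2-fold with BR-DIM at 48 h (1616 to 3598, 1.15) and the others, each by the probe set that stands for it, were within 2-fold on every array. The count was 1 of 8 higher on that array, beside 5.33% of all genes. The methyl-CpG binding proteins MBD2 and MBD3 were at -0.87 and -0.83 with BR-DIM at 48 h, and other MBD3 probe sets gave -0.35 and -1.09. The remodeller HELLS was at 0.48 with isoflavone at 6 h, while its 3 other bright probe sets gave -0.08, -0.15 and -0.30. Among 16 enzymes that work against the 10, TDG, the thymine DNA glycosylase that completes active demethylation, was at least 2-fold lower with BR-DIM at each time. Its signal was 4208 in the control, 2073 after 6 h and 1714 after 48 h of BR-DIM, and 3180 after 6 h and 4013 after 72 h of isoflavone. The BR-DIM ratios were -1.02 and -1.30, those of isoflavone -0.40 and -0.07, and a second TDG probe set gave -1.27, -0.99, -0.41 and -0.56. The acetyltransferase KAT2B was higher with BR-DIM at 48 h (1.01), and so was TET1, which oxidises methylcytosine (1.01), though another TET1 probe set gave -0.89 there. The acetyltransferase KAT8 was at 0.89 on that array and 0.95 with isoflavone at 72 h, whereas its second probe set was at -0.88 and -0.28. The counts in this list were 0 higher and 1 lower of 16 with BR-DIM at 6 h, beside 2.86% and 0.806% of all genes, and 2 and 1 with BR-DIM at 48 h, beside 5.33% and 3.87%. They were 0 and 0 on each isoflavone array, beside 1.18% and 3.82% of all genes at 6 h and 4.80% and 2.06% at 72 h.

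**Figure D5:**
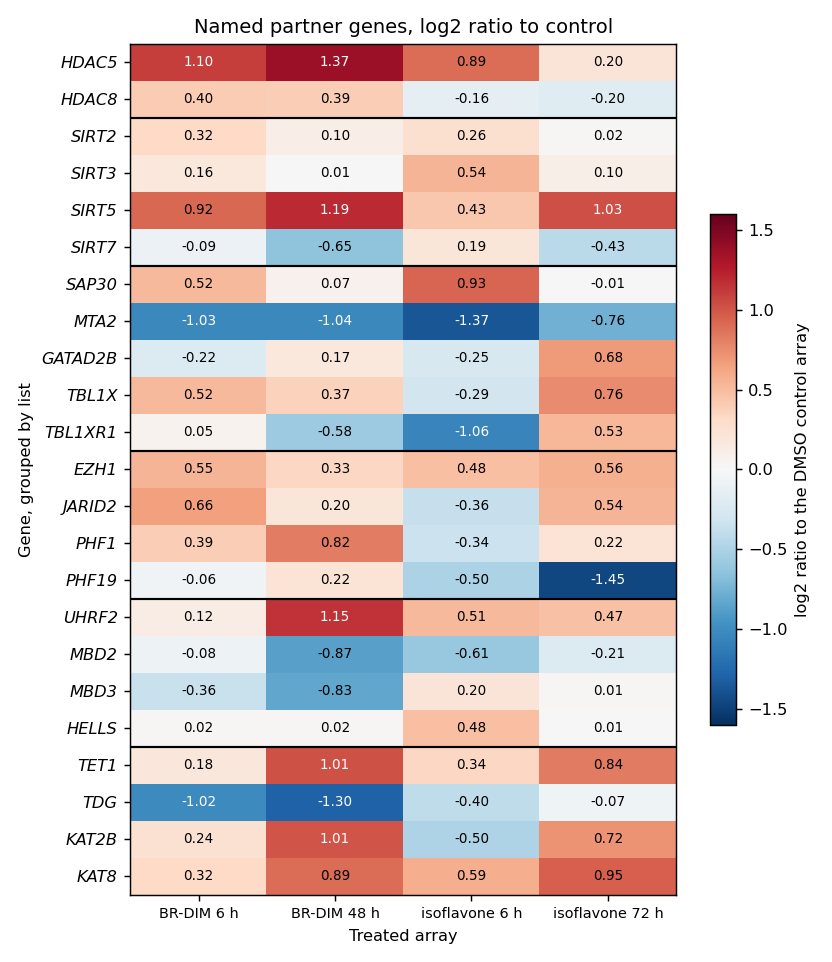
Log2 ratio to the DMSO control array (colour and printed value) of the named partner genes, each by the probe set that stands for it, in rows grouped by list, on the 4 treated arrays in columns; the value of MTA2 with isoflavone at 6 h is a bound at the floor. HDAC5 (1.10 and 1.37), TDG (-1.02 and -1.30) and MTA2 (-1.03 and -1.04) are past 2-fold on both BR-DIM arrays.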

How the data were processed

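RNA of C4-2B cells was hybridised to Affymetrix Human Genome U133 Plus 2.0 arrays, 1 per condition. The deposited values are intensity signals, 1 linear value per probe set, which the authors normalized with Microarray Suite (MAS5 in the submitters' processing notes), MicroDB and Data Mining Tool; the version, scaling target and detection calls are not given in the sources used here. Trimmed means lay between 498.1 and 498.4 on the 5 arrays. The number of arrays limits the precision.

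Of 54613 probe sets, 41091 map to a single gene in the platform's gene table; 1801 with several genes and 11721 not listed were not used. The brightest probe set by mean signal stood for each of 19775 genes. Log2 ratios were formed in 7 comparisons after the floor of 97.1, and a gene counted as measured if either array of the pair exceeded the floor. Python 3.11.15, numpy 2.4.6 and pandas 2.3.3 were used, and the procedure was checked on simulated data. Promoters came from RefSeq (GRCh38.p14), which holds all 10 genes.

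The genes and lists were chosen with earlier results of these data known. Named were all 10 genes, per list the 4 genes with the largest ratio and a signal over 4 times the floor on an array, plus those past 2-fold on at least 2 treated arrays, and for the 3 genes with the widest range the 3 genes nearest in pattern. EED, SUZ12, RBBP4, RBBP7, UHRF1, PCNA, CAV1, GSTP1, CDKN1A, E2F1 and MYC were chosen for naming once their values were seen. The same holds for CDK1, TYMS, TOP2A, HDAC4, HDAC7 and HDAC11. The alternatives were quantile normalization, median ratio scaling, no floor, the 75th percentile as floor (471.7), the floor as a pseudocount, averaged probe sets, no _s_at or _x_at probe sets, and 1.5-fold.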

Additional observations from a re-analysis of the deposited data

How the results depend on the processing

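The count of HDAC9 as higher with BR-DIM at 48 h was the only 2-fold call, and it remained with quantile normalization, median ratio scaling, no floor and without _s_at and _x_at probe sets. It became 0 when the floor was added as a pseudocount (log2 ratio 0.91). In 2 other settings it became 0 because HDAC9 had no value. With the 75th percentile of signals as floor all HDAC9 signals lay under it, as did those of DNMT3A, so 8 of the 10 genes were measured. With all probe sets averaged the mean of HDAC9 lay under the floor. All other counts at 2-fold, in each direction and comparison, were 0 under these alternatives. At 1.5-fold the counts became 1 higher with BR-DIM at 6 h, 1 lower with BR-DIM at 48 h, 1 higher and 1 lower on each isoflavone array, 1 higher with isoflavone at 72 h over 6 h and 2 higher with BR-DIM at 6 h over isoflavone at 6 h. Signs of ratios near 0 turned for HDAC1 and HDAC2 with BR-DIM at 6 h with quantile normalization (0.02 and 0.03), and for DNMT3A with BR-DIM at 6 h with probe sets averaged (0.20). Between times DNMT3A moved further. Its ratio of isoflavone at 72 h over 6 h, 0.0012 in the main setting, went as low as -0.57 among the alternatives. That of BR-DIM at 48 h over 6 h, 0.10 in the main setting, went as low as -0.18. Without _s_at and _x_at probe sets 4 of the 10 genes could be measured, HDAC1, HDAC2, HDAC9 and DNMT3A. HDAC9 and DNMT3A have mean signals under 4 times the floor, where depth of signal limits the ratios most. No array was left out and no paired analysis was possible because each condition has 1 array and the labels give no replicate numbers.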

Other observations

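Genes described as silenced by DNA methylation or EZH2 in prostate cancer were read on the same arrays. Of 22 such genes 20 had a probe set of their own. With BR-DIM at 48 h 3 of 19 measured were at least 2-fold higher and 1 was lower, beside 5.33% and 3.87% of all genes. The higher ones were KLF6, a zinc finger factor (1027 to 3132, log2 ratio 1.61), TIMP3, an inhibitor of metalloproteinases (460 to 1319, 1.52), and the adhesion receptor CD44 (183 to 434, 1.25). The other measured KLF6 probe sets gave 1.67 to 1.92 and those of TIMP3 0.97 to 1.47, and those of CD44 0.51 to 1.55. The lower gene was CDH1 (-4.46), also among the epithelial genes, which was also low with isoflavone at 6 h (-4.50, a bound), and CAV1, which encodes caveolin, was lower there too (-1.18), though its second probe set gave -0.32. With isoflavone at 6 h 0 of 20 were higher and 2 lower, beside 1.18% and 3.82% of all genes. With BR-DIM at 6 h and isoflavone at 72 h 0 of 20 and 0 of 18 were past 2-fold, where 3.66% and 6.86% of all genes were in either direction. GSTP1, the glutathione transferase known for its methylation in prostate cancer, read 7109 in the control, and the treated arrays lay between 5439 and 7582. SLIT2 (10585) and CDKN2A (10480) of this list were also bright in the control, while ESR1 (40.8) and PTGS2 (75.7) were under the floor. The list is thus not one of genes silent in these cells. CDKN1A was highest with isoflavone at 72 h, at 1753 against 1139 in the control (0.62). The list's median was 0.20, 0.03, -0.26 and 0.18 with BR-DIM at 6 h, BR-DIM at 48 h, isoflavone at 6 h and isoflavone at 72 h, beside 0.07, 0.06, 0.0035 and 0.05 for all genes.

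Of 7 regulators known to act on the promoters of the enzymes, 0 were higher by 2-fold on any array and RB1, the retinoblastoma gene, was lower with isoflavone at 6 h (817 to 314, -1.38), where 3.82% of all genes were lower. A second RB1 probe set gave -0.08 there and -1.55, a bound, with isoflavone at 72 h, where the first gave 0.31. E2F2 was highest with BR-DIM at 48 h (0.77), where its dimmer probe sets gave bounds of 0.57 and -0.20. E2F3 was lowest with isoflavone at 6 h (-0.80). The second E2F3 probe set gave -0.37 there. E2F1 stayed between -0.18 and 0.12 and MYC between -0.16 and 0.46. SP3, which shares the GGGCGG site with SP1, was at 0.84 with BR-DIM at 48 h and 0.72 with isoflavone at 72 h. Another SP3 probe set gave 0.48 and 0.50 on those arrays.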
